A study of Rattus norvegicus with 129 samples.

Results

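The cytosolic ribosome of the rat liver was followed through the messenger RNAs of its protein subunits. A probe set (a group of array oligonucleotides designed against 1 transcript) was taken when its annotation gave a single symbol of a ribosomal protein, that is, a symbol starting with Rpl (large subunit) or Rps (small subunit) followed by a digit, or Rplp0, Rplp1, Rplp2 or Rpsa. Symbols of the Rps6 kinases and the "-like" copies such as Rpl22l1 were left out. On the 3 array types, 58 of 8799, 51 of 31099 and 46 of 15923 probe sets qualified, 155 of 55821 in all, for 39, 45 and 41 genes. Together they represented 51 of 14372 genes with a probe set of their own, 33 of the large and 18 of the small subunit, and 33 genes were on all 3 array types. No single-symbol probe set was found for Rplp1, Rplp2, Rps27a, Rps14 or Rps19, so these proteins are not described. Of the member probe sets, 28, 3 and 2 on the 3 array types carried a name suffix that the array design gives to probe sets built under other than its standard rules, among them those shared between similar transcripts, and 3, 2 and 0 carried pseudogene names. Ribosomal protein genes have many processed pseudogenes of near-identical sequence, so signal shared with such copies cannot be separated here.

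The study set the liver's response to perfluoroalkyl acids beside that to activators of xenobiotic receptors, in 5 experiments with 129 arrays in 31 groups. Male and female Sprague-Dawley rats received by gavage phenobarbital (PB, which activates the receptor CAR) at 100 mg/kg, PCN (a steroid that activates the receptor PXR) at 100 mg/kg, or methylcellulose vehicle, and livers were taken 6 h or 24 h after 1 dose or after 5 days of dosing, with 5 rats a group. Female Sprague-Dawley rats, 4 weeks old, ate a mash diet with or without D3T, a dithiolethione that activates the factor Nrf2, at 600 mg/kg diet (4 rats a group, duration of feeding not stated in the labels). Female Sprague-Dawley rats of 60 days received perfluorooctane sulfonate (PFOS) at 5 mg/kg or Tween-20 vehicle daily for 3 weeks (2 rats a group). Male Sprague-Dawley rats, 10 weeks old, received perfluorooctanoic acid (PFOA, as ammonium salt) at 20 mg/kg, PFOS (as potassium salt) at 10 mg/kg or Alkamuls vehicle daily (3 rats a group, number of days not stated in the labels). Male Wistar Hanover rats received Wy-14643, an agonist of the receptor PPAR alpha, at 60 mg/kg or carboxymethyl cellulose for 1, 3 or 7 days (3 rats a group). The labels give no dose for Wy-14643 rat 06, at 3 days. Whole liver was used in every group, so an altered number of cells of a type and altered RNA per cell cannot be told apart. One array, from a male vehicle rat at 6 h (number 1003), was left out, so that group had 4.

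Each ribosome carries 1 copy of nearly every one of these proteins, and liver cells make their subunits in step with ribosomal RNA synthesis in the nucleolus. Messenger RNAs of ribosomal proteins are known for a run of pyrimidines that begins with a C at the very first transcribed base, the terminal oligopyrimidine tract, through which mTOR signalling and Larp1 set how much of the message is translated. Arrays measure the message, not its translation, so control at that step is not seen in these values.

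The start sites of 8 genes that recur in the results are shown because that tract is the feature the family is known to share. They are RefSeq start sites on build GRCr8, from 20 bases before to 15 bases after the annotated start, 5′ to 3′ on the coding strand. Capitals mark a C at the first transcribed base followed by at least 4 more C or T.
Rplp0, chr12:46718376-46718410, minus strand: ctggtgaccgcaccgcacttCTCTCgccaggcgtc
Rpl14, chr8:129163600-129163634, plus strand: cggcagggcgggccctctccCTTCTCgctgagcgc
Rpl35, chr3:43165907-43165941, minus strand: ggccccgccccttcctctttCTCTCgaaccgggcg
Rpl4, chr8:73566457-73566491, plus strand: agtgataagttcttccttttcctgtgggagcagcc
Rpl3, chr7:113507976-113508010, minus strand: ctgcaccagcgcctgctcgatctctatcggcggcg
Rpl5, chr14:1995211-1995245, minus strand: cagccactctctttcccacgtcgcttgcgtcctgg
Rpsa, chr8:128728859-128728893, plus strand: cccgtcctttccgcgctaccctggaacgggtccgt
Rps24, chr16:96497-96531, plus strand: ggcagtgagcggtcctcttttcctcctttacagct
Of the 51 member genes 42 had an entry, and 14 of these (33.3%) began with such a run on the coding strand, against 881 of 33469 entries of all genes (2.63%). With the run allowed to lie anywhere from 5 bases before the annotated start to the end of a window of 20 bases, 26 member genes (61.9%) and 22.8% of all entries held it. Rplp0, Rpl14 and Rpl35 began with the run, and Rpl4 and Rps24 held one within the wider window. Rpl3, Rpl5 and Rpsa had none in either window, which says only that these letters are not at the annotated position.

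Values below are log2(intensity + 16), differences are treated minus control on that scale, "dim" means a mean level of at most 8, and "called" means an adjusted p under 0.05 in limma with Benjamini-Hochberg adjustment over all probe sets of the array. The mean deposited intensity of an array ranged from 159 to 454.5 in the PB and PCN study, from 191.6 to 294.7 in the 3-week PFOS study, from 246.2 to 384.5 in the PFOA and PFOS study and from 317.3 to 613.7 in the Wy-14643 study. In the D3T study it was 93.26 to 117.4 on the D3T arrays and 276.4 to 416.9 on the control arrays, so the brightness of an array and the diet cannot be told apart there. The mean log2 value of the hepatocyte marker probe sets on an array, called their marker level from here on and taken likewise for other cell types, was 10.47 or higher in every study, so the labelled tissue's defining messages were present. The ratio of the 3′ to the 5′ control probe sets of Gapdh, a sign of RNA integrity, was 6.19 for 1 male PB rat at 5 days and 4.16 for 1 male PCN rat at 5 days, against at most 2.56 on the other arrays of that study.

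After PB or PCN few ribosomal protein messages passed the test in either sex. Over 12 comparisons and 696 values, 1 was called higher and 1 lower, and 3 values lay more than 0.5 from 0 in either direction. The median change of the 58 probe sets ran from -0.09, in females after 5 days of PB, to 0.09, in males 24 h after PB. The median half-width of a 95% interval was 0.213 to 0.226, and for 83.5% of the values the whole interval lay within 0.5 of 0; for probe sets with a mean level above 8, that share was 92.7%. At an unadjusted p under 0.05, between 1 and 8 of the 58 probe sets were counted in a comparison. The share of all probe sets at that threshold is not given here, so these counts have no background to be read against.

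The single higher call was Rpl3, whose protein reaches into the peptidyl transferase centre, in males 6 h after PCN. Its mean was 11.3 ± 0.268 (SD, n = 5) after PCN and 10.9 ± 0.145 (n = 4) in vehicle rats, a difference of 0.44 ± 0.12 (SE, limma, adjusted p = 0.036), and the 2 groups overlapped. The other Rpl3 probe set read 0.32 (adjusted p = 0.14). The call was lost under median scaling (adjusted p = 0.23); the count was 0 without vehicle rat 1001, 1004 or 1005 or PCN rat 5002, 5003 or 5005, and 2 without PCN rat 5004. With array 1003 kept, 10 members were called in that comparison and 3 in males 6 h after PB, so the 6 h counts in males depend on that array. Keeping it also raised the calls among all 8740 probe sets, from 164 to 934 and from 64 to 269. The single lower call was Rpl23, a protein on the face of the large subunit that meets the small one, in females after 5 days of PCN. One PCN rat (number 5513) read 9.70 and the other 4 read 10.7 to 10.8, against a mean of 10.9 ± 0.128 (SD, n = 5) in vehicle rats. The difference was -0.33 ± 0.11 (limma, adjusted p = 0.043), and without that rat, or without vehicle rat 1511, 1513, 1514 or 1515, no member was called. The other Rpl23 probe set read 0.01. One member was called for PB males at 6 h without PB rat 4005, for PB males at 5 days without PB rat 4012 or vehicle rat 1013, and for PCN females at 24 h without PCN rat 5508.

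These counts sit against the shares of all 8740 tested probe sets. After PB, 0.618% were called higher and 0.114% lower in males at 6 h, 1.37% and 0.938% at 24 h, and 2.56% and 2.35% at 5 days. In PB females the shares were 1.3% higher and 1.3% lower at 6 h, 2.31% and 1.73% at 24 h, and 1.45% and 1.02% at 5 days. After PCN in males they were 1.3% and 0.572% at 6 h, 0.469% and 0.103% at 24 h, and 2.93% and 1.84% at 5 days. In PCN females they were 1.51% and 0.732% at 6 h, 2.29% and 1.41% at 24 h, and 4.45% and 3.98% at 5 days. At 1 of 58 (1.72%), the members' highest share was below the share of all probe sets called lower in the PCN females at 5 days and near the share called higher in the PCN males at 6 h. A test of whether the effect differed between the sexes called no member for either compound at any time. Of all probe sets it called 1.02%, 0.0114% and 0.103% for PB at 6 h, 24 h and 5 days, and 0.0458%, 0.0229% and 0.606% for PCN. At an unadjusted p under 0.05 it counted 0, 0 and 4 members for PB and 3, 2 and 1 for PCN. Those unadjusted counts are likewise given without the share of all probe sets.

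**Figure D1:**
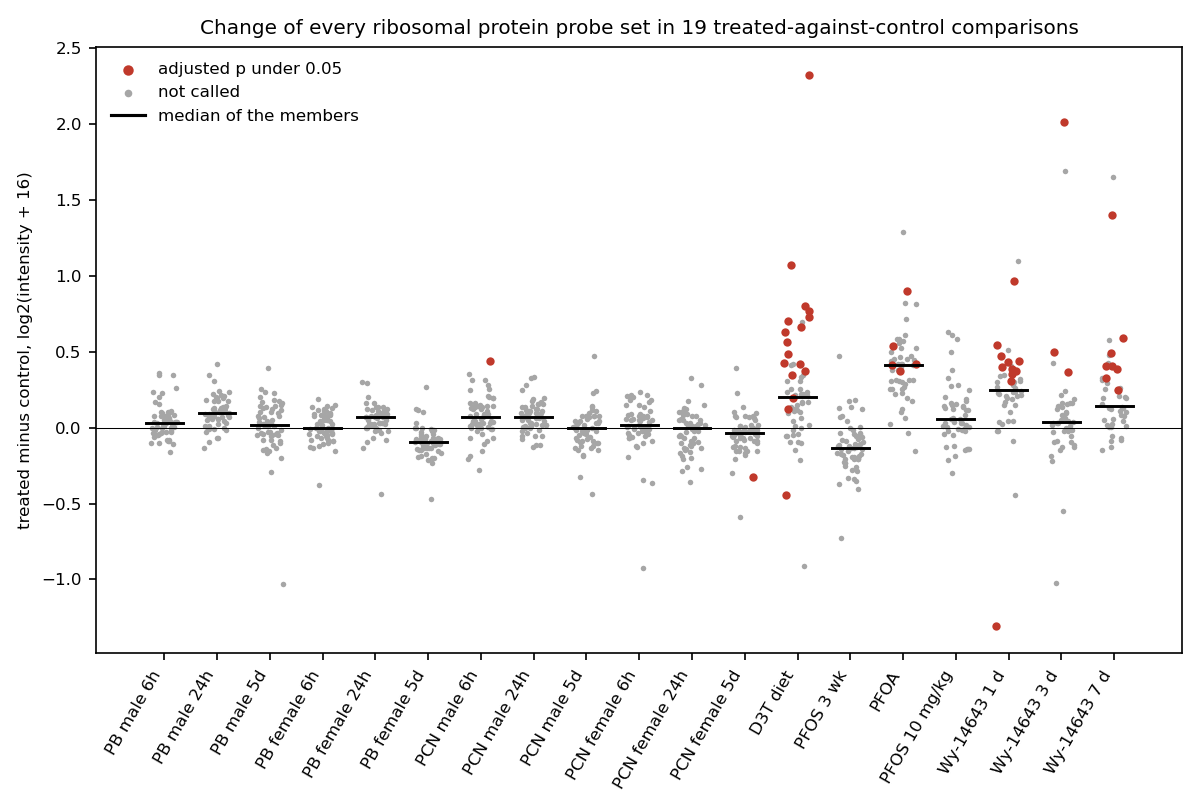
Change of every ribosomal protein probe set (y axis, treated minus control on the log2(intensity + 16) scale) in the 19 treated-against-control comparisons (x axis). Each point is a probe set, red points have an adjusted p under 0.05 (limma), and the black bar is the median of the members. The 12 PB and PCN comparisons hold 2 red points, D3T holds 17, PFOA 5, and Wy-14643 11, 3 and 8 at 1, 3 and 7 days.

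Between the sexes, 10, 11 and 5 of the 58 ribosomal protein probe sets were higher in vehicle females than in vehicle males at 6 h, 24 h and 5 days, and none was lower. This comparison was chosen after the values had been seen. The median of the 58 probe sets was higher in females by 0.22 at 6 h, 0.25 at 24 h and 0.20 at 5 days, and 51, 56 and 56 of the 58 differences were above 0. Of all probe sets, 3.58%, 2.91% and 2.72% were called higher in females and 2.91%, 2.13% and 2.57% lower, while 17.2%, 19% and 8.62% of the members were called. Under median scaling the calls were 4, 6 and 2, all higher, and the medians 0.25, 0.32 and 0.17.

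Rps6, the protein that S6 kinases phosphorylate, was called at all 3 times by 1 probe set (M29358_g_at), with females above males by 0.35, 0.31 and 0.40. Rpsa, a small-subunit protein known also as the laminin receptor, was higher by 0.41 at 6 h, 0.38 at 24 h and 0.28 at 5 days (D25224_at, limma, adjusted p = 0.00047, 0.00062 and 0.025). In vehicle rats at 6 h its mean was 10.8 ± 0.084 (SD, n = 5) in females and 10.3 ± 0.09 (n = 4) in males, without overlap. Rpsa was named for its calls on these same values, so that gap adds no support. Rpl7a and Rpl35, both of the large subunit, were also called at all 3 times, by 0.46, 0.50 and 0.45 for Rpl7a and by 0.41, 0.29 and 0.30 for Rpl35. The median of the members on an array was 10.4 to 10.8 in vehicle females and 10.3 to 10.6 in vehicle males at 6 h, and 10.7 to 10.9 and 10.6 to 10.6 at 5 days. At 24 h 3 of 6 probe sets for blood cells were lower in females, with a list median of -0.44; their part in the sex difference was not tested. The count fell to 6 at 6 h without male 1001; at 24 h it was 7 without male 1006 and 6 without female 1508 or female 1509; at 5 days it was 8 without female 1512.

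The D3T diet was followed by higher levels of 16 ribosomal protein probe sets, of 15 genes, and a lower level of 1. Of these 16, 11 belonged to the large and 5 to the small subunit, on an array with 38 member probe sets of the large and 20 of the small. The members' median change was 0.20, and 45 of 58 changes were above 0, against 44% of all probe sets. In all 29.3% of the members were called, in a study where 5.22% of all probe sets were called higher and 7.33% lower. On single arrays the members' median was 10.3, 10.4, 10.3 and 10.4 in D3T rats and 10.0, 10.1, 10.1 and 10.1 in control rats, without overlap.

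Rpl35, a large-subunit protein at the mouth of the peptide exit tunnel, had the largest change among called members with a mean level above 8. Its first probe set (M34331_at) read 10.5, 10.5, 10.4 and 10.5 in the D3T rats and 9.16, 9.34, 9.42 and 9.63 in the controls, a difference of 1.07 ± 0.10 (SE, limma, adjusted p = 0.0028). The second (M34331_g_at) rose by 0.70 ± 0.09, and control rat 1, at 10.6, stood above the other 3 controls at 10.3 to 10.4. Rpsa rose by 0.80 ± 0.12 (adjusted p = 0.01), with 10.3 to 10.7 in D3T rats and 9.65 to 10.1 in controls. Rpl6 and Rpl14, both on the outer face of the large subunit, rose by 0.77 ± 0.13 and 0.63 ± 0.03. The Rpl14 groups were narrow, at 9.44 to 9.55 and 8.85 to 8.92.

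Rpl7a, a large-subunit protein of a family that binds kink-turn RNA, rose by 0.73 ± 0.06, and Rpl24 rose by 0.66 ± 0.07 in 1 of its 2 probe sets; the other read -0.09. Rpl13a, which also takes part in translational silencing outside the ribosome, rose by 0.56 ± 0.08 in 1 of its 2 probe sets. The brighter one read 0.10 and was not called. Rplp0, the stalk protein that anchors Rplp1 and Rplp2, rose by 0.42 ± 0.05, from 10.8 to 11.1 in controls to 11.3 to 11.4. Rps10 rose by 0.42 ± 0.06 and Rps3, which lines the entry channel of the message, by 0.37 ± 0.04. Rpl3, Rpl36, Rps15 and Rpl31 rose by 0.48, 0.34, 0.19 and 0.13. The second probe sets of Rpl3, Rpl6, Rpsa and Rps3 read 0.16, 0.35, 0.42 and 0.21, and none of these was called. All 16 probe sets called higher had groups without overlap, but they were picked by the test on these same values, so this adds no support. No share of all probe sets without overlap is given here.

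The largest value, Rps24 at 2.33 ± 0.50, came from a dim probe set: 7.40 to 7.74 in D3T rats and 4.00, which is the floor of the scale, to 6.43 in controls. Its call was lost with a pseudocount of 1, and the calls of Rps24, Rps29 and Rpl3 were each lost in 6 of the 8 fits without 1 array. Rps29, a small zinc-binding protein of the small subunit, was the lower call, at 12.1, 12.1, 11.7 and 12.1 in D3T rats and 12.4 to 12.5 in controls, a difference of -0.44 ± 0.10 (adjusted p = 0.029). That direction depends on the scaling: with median scaling this probe set read 0.43 (adjusted p = 0.3). The other Rps29 probe set, at a mean level of 11.3, read 0.11 and was not called, so the probe sets of this gene did not share the fall. Median scaling called 13 members, all higher, with a median of 0.45, and turned the split of all called probe sets from 456 higher and 641 lower to 451 and 351. Leaving out each array in turn left 12 to 18 members called.

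Other genes of the translation machinery moved in both directions in the D3T livers. Rack1, a scaffold protein on the small subunit that the symbol rule leaves out, rose by 0.85. Of 37 probe sets for translation factors 6 rose and 4 fell: elongation factor Eef2 rose in 3 probe sets (0.63 to 0.92) and Eef1a1 by 2.46, while the cap-binding protein Eif4e fell by 0.70 and the initiation factor subunit Eif3m by 0.63. Of 22 probe sets for ribosome biogenesis none rose and 1, Ddx21, an RNA helicase of the nucleolus, fell by 0.98; the list's median was 0.00. Under median scaling 3 translation factor probe sets were higher and 1 lower, and no ribosome biogenesis probe set was called. Of 14 lymphocyte marker probe sets 5 fell and 1 rose, with a marker level of 5.34 to 5.80 in D3T rats and 5.93 to 6.16 in controls. Macrophage markers were at 7.59 to 7.80 against 7.83 to 7.96 (2 of 6 lower) and stellate cell markers at 5.61 to 5.77 against 5.82 to 6.01 (1 of 21 higher, 1 lower), again without overlap. Hepatocyte markers were at 10.7 to 10.8 in both groups, with 5 of 38 higher and 9 lower; under median scaling 10 were higher and none lower, and their median change was 0.71, above the members' 0.45. The part of these markers in the changes above was not tested.

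After 3 weeks of PFOS at 5 mg/kg no ribosomal protein probe set was called, and 0% of all probe sets were called higher and 0% lower with 2 rats a group. No member had an unadjusted p under 0.05, a count also given without the share of all probe sets. The members' median change was -0.13, with 11 of 58 above 0, and it was 0.16 or -0.43 when 1 or the other PFOS rat was left out. On single arrays the members' median was 10.5 and 10.7 in vehicle rats and 10.1 and 10.8 in PFOS rats. The median half-width of a 95% interval was 1.26, wider than every member's change (-0.73 to 0.47), so differences of the size called in most other members were not detectable here.

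After PFOA at 20 mg/kg, 5 of 51 ribosomal protein probe sets were called, all higher and all of the large subunit, and 46 did not pass. The large subunit held 33 of the 51. The median change was 0.41, with 49 of 51 values above 0. In 31 of the 51 the lowest PFOA rat lay above the highest vehicle rat, and in none was the order turned. No share of all probe sets without overlap is given here, so that count has no background to be read against. Of all probe sets 3.23% were called higher and 2.83% lower, against 9.8% of the members. On single arrays the members' median was 12.6, 12.4 and 12.3 in PFOA rats and 12.0, 11.9 and 12.1 in vehicle rats.

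Rpl12, at the base of the ribosomal stalk, read 12.8, 12.7 and 12.5 in PFOA rats and 11.8, 11.6 and 12.0 in vehicle rats, a difference of 0.90 ± 0.18 (SE, limma, adjusted p = 0.035). Rpl5, which with Rpl11 carries the small ribosomal RNA of the large subunit and binds Mdm2, read 12.9, 12.9 and 12.5 against 12.3, 12.1 and 12.2, a difference of 0.54 ± 0.10 (adjusted p = 0.034). Rpl11 itself read 0.47 and did not pass. Rpl7a, Rpl6 and Rpl26 rose by 0.42 ± 0.07, 0.41 ± 0.08 and 0.38 ± 0.06, and the PFOA and vehicle rats did not overlap in any of them. They were picked by the test on these same values, so the lack of overlap adds no support. Among the members that did not pass, Rpl4, which lines the exit tunnel, read 0.81 ± 0.26 (adjusted p = 0.13) and Rpl3 0.71 ± 0.19 (adjusted p = 0.085), while Rpl41 read 0.03 and Rpl39 -0.04.

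The 5 PFOA calls were sensitive to the processing. Under median scaling none was called and the median was 0.32, with 46 of 51 above 0. Without the probe sets of lowest level 1 was called; with 1 array left out the count was 0, 0 and 3 without the vehicle rat whose members' median was 12.0, 11.9 or 12.1, and 0, 2 and 3 without the PFOA rat at 12.6, 12.4 or 12.3. The medians of the members stayed between 0.35 and 0.41 in these fits.

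Of 71 probe sets for genes that build ribosomes, 26 were called higher after PFOA and none lower, with a median change of 0.92; under median scaling it was 19, none lower, and 0.96. Polr1b, a subunit of RNA polymerase I, rose by 2.29, Rrs1, an assembly factor of the large subunit, by 2.29, Wdr43, which acts early in small subunit processing, by 2.23, and Gar1, a protein of the pseudouridylation complex, by 2.05. Of 67 probe sets in the list of translation factors and other messages known to be translated under mTOR control, 16 rose and none fell (10 and none under median scaling). The initiation factor subunits Eif2b3 (a dim probe set) and Eif2s1 rose by 3.51 and 0.96, Eif4ebp1, which restrains the cap-binding protein, by 1.00, and Nap1l1, a histone chaperone in that list and no translation factor, by 1.36. Mitochondrial ribosomal proteins, which serve the ribosome of that organelle, had 7 of 97 probe sets higher and a median of 0.25. Sesn1, an inhibitor of mTOR signalling, fell by 1.65.

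Markers of other liver cells moved in the same animals: 3 of 8 endothelial probe sets were lower after PFOA, with a marker level of 6.99 to 7.41 against 7.96 to 8.35 in vehicle rats, and 1 of 8 macrophage probe sets was lower. Hepatocyte markers were at 11.7 to 11.9 against 12.0 to 12.2 in vehicle rats, without overlap, with 3 of 21 lower and a median change of -0.28 (3 and -0.54 under median scaling). Stellate cell markers were at 6.72 to 7.01 against 7.05 to 7.19, with 1 of 17 higher and 2 lower. Their part in the changes was not tested.

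**Figure D2:**
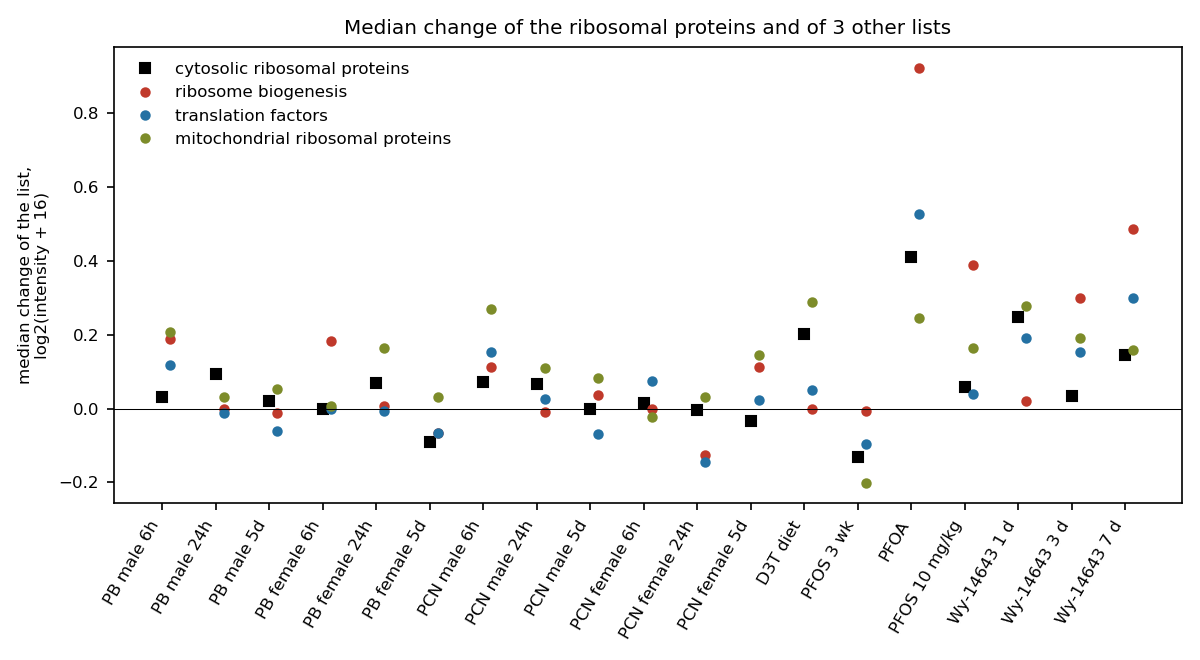
Median change on the log2(intensity + 16) scale (y axis) of the cytosolic ribosomal proteins (black squares) and of 3 other lists (circles) in the 19 comparisons (x axis). The ribosome biogenesis list stands at 0.92 after PFOA and 0.49 after 7 days of Wy-14643, above the ribosomal proteins at 0.41 and 0.15.

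PFOS at 10 mg/kg, set against the same 3 vehicle rats, was followed by no called member, with 2 of 51 at an unadjusted p under 0.05. The share of all probe sets at that unadjusted threshold is not given here. Of all probe sets 0.283% were called higher and 0.177% lower. The median was 0.06, with 35 of 51 above 0. One PFOS rat had a members' median of 12.3 and the others 11.8 and 11.9; without it the median change was -0.04. Under median scaling that rat read 13.0 and the others 11.8 and 11.9, and the median change of the members was 0.38, so the scaling of 1 array sets this value. None of 71 probe sets for ribosome biogenesis was called after PFOS, with a median of 0.39.

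PFOA and PFOS are both perfluorinated chains, PFOA ending in a carboxylate and PFOS in a sulfonate. Their doses differed (20 and 10 mg/kg), so the difference between them is that of 2 treatments, not of matched doses. Taken directly, PFOA minus PFOS, 3 of 51 members were called, all higher with PFOA, against 1.32% of all probe sets in either direction. Rpl5 read 12.9, 12.9 and 12.5 with PFOA and 12.1, 12.0 and 12.1 with PFOS, a difference of 0.68 ± 0.10 (limma, adjusted p = 0.038), and Rpl7a and Rpl6 differed by 0.60 ± 0.07 and 0.54 ± 0.08. The members' median difference was 0.30 and turned to -0.13 under median scaling, where no member was called, so the sign of the family's difference between the compounds rests on how the 9 arrays were scaled. Another sign of RNA integrity is the 3′ to 5′ ratio of Actb. It was 3.67 to 4.85 on the PFOS arrays, 1.78 to 3.38 on the PFOA arrays and 1.79 to 3.16 on the vehicle arrays. The PFOS arrays thus stood apart from both in Actb. They overlapped both in the Gapdh ratio, at 2.186 to 2.536 against 1.455 to 2.521 with PFOA and 1.395 to 2.492 with vehicle. The part of RNA integrity in these values was not tested.

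**Figure D3:**
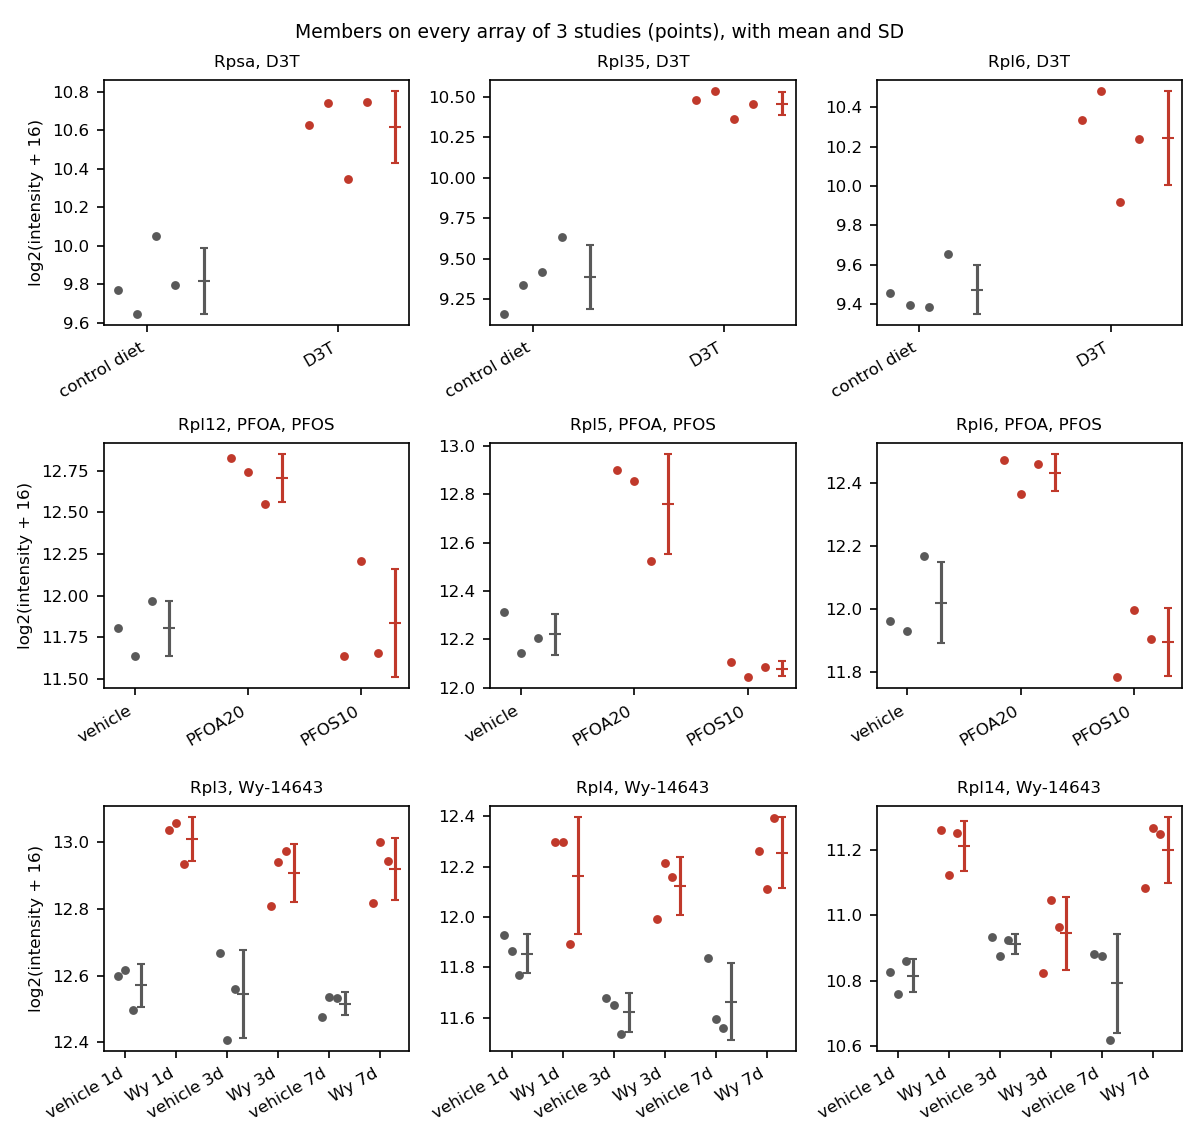
Values of 9 members on every array of 3 studies (points, y axis log2(intensity + 16)), grey for control and red for treated groups (x axis), with the mean and SD beside them. The D3T and PFOA groups lie above their controls in each of their panels, the PFOS group overlaps its vehicle rats or lies below them, and Rpl3 in Wy-14643 rats lies above the vehicle rats at 1, 3 and 7 days.

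Wy-14643 raised 10 ribosomal protein probe sets after 1 day, 3 after 3 days and 8 after 7 days, and lowered 1, at 1 day. The members' medians were 0.25, 0.03 and 0.15, with 41, 28 and 40 of 46 above 0; at 3 days the median turned to -0.14 under median scaling, and at 1 and 7 days it was 0.28 and 0.04. The background was high in this study: 5.94% of all probe sets were called higher and 5.52% lower at 1 day, 5.56% and 5.22% at 3 days, and 6.57% and 6.49% at 7 days. The members' shares called were 23.9%, 6.52% and 17.4%, so the 3-day share was near the background.

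Rpl3 was called at all 3 times. It read 13.0, 13.1 and 12.9 after 1 day of Wy-14643 and 12.6, 12.6 and 12.5 with vehicle, a difference of 0.44 ± 0.07 (SE, limma, adjusted p = 0.0014), and 0.36 ± 0.07 and 0.41 ± 0.07 at 3 and 7 days. Under median scaling it kept its call at 1 day only, with 0.38, 0.09 and 0.24. Rpl4 was called at 3 and 7 days, by 0.50 ± 0.11 and 0.59 ± 0.11, with 12.3, 12.1 and 12.4 at 7 days against 11.8, 11.6 and 11.6. Rpl14 and Rpl5 rose at 1 and 7 days, Rpl14 by 0.40 and 0.41 and Rpl5 by 0.31 and 0.32. Rpsa rose at both of those times too, but in different probe sets, by 0.37 in one at 1 day and by 0.39 in another at 7 days.

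The other rises at 1 day were Rpl23 (0.54 ± 0.14), Rpl23a (0.47 ± 0.13), which sits beside the tunnel exit where the signal recognition particle binds, Rpl6 (0.43 ± 0.10), Rpl18 (0.38 ± 0.12), Rps3 (0.35 ± 0.08) and Rps4y2 (0.96 ± 0.24, from a dim probe set). At 7 days Rpl12 and Rplp0 rose by 0.49 ± 0.14 and 0.25 ± 0.07. Rpl30 read 2.01 ± 0.34 at 3 days and 1.4 ± 0.34 at 7 days on a dim probe set, with vehicle arrays at those times at 4.00, the floor, to 5.21 and Wy-14643 arrays at 5.31 to 6.45.

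Rps24 was the only member whose Wy-14643 effect differed between 7 days and 1 day. Its dim probe set read 4.41, 5.10 and 5.14 after 1 day of Wy-14643 and 6.17, 6.25 and 6.15 with vehicle, a difference of -1.31 ± 0.22 (adjusted p = 0.0025), and the 7-day effect exceeded the 1-day effect by 1.79 ± 0.32 (adjusted p = 0.012). The test called 1.87% of all probe sets in either direction. It called no member when the probe sets of lowest mean level were left out or only the compared groups were fitted. The bright probe set of Rps24 read 0.15 at 1 day and was not called, so the 2 probe sets of this gene did not share the change. Rpl14 also had a dim second probe set, which read 1.10, 1.69 and 1.65 at 1, 3 and 7 days without passing.

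One 7-day Wy-14643 rat (number 12) had a members' median of 11.7, below the other 2 treated rats at 12.2 and 12.3 and below the vehicle rats at 11.9 to 12.0. Without it the members called at 7 days went from 8 to 24, all higher, and the median from 0.15 to 0.30; the count was 5 without vehicle rat 35 and 5 without Wy-14643 rat 14. Median scaling left 4 members called at 7 days, and a fit of only the 7-day groups left 2. At 1 day the counts were 6 without vehicle rat 22 or 24 and 7 without Wy-14643 rat 03 or 04, and 17 when only the 1-day groups entered the fit. The Gapdh 3′ to 5′ ratio was lower on the Wy-14643 arrays (1.42 to 1.67) than on the vehicle arrays (1.72 to 1.92), and that of Actb was 1.53 to 2.02 against 1.99 to 3.17; their part in the changes was not tested.

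Translation factors were called higher at each time: 12 of 51 probe sets were called higher and 1 lower at 1 day, 11 and none at 3 days, and 24 and none at 7 days. Nap1l1, the histone chaperone in that list, rose by 1.16, 1.23 and 1.46 in the probe set with the largest changes, and Eif4g1 (a dim probe set), the scaffold of cap-dependent initiation, by 1.30 and 1.16 at 3 and 7 days. At 7 days the initiation factor subunits Eif2b2 and Eif3c rose by 0.92 and 0.91. Of 49 probe sets for ribosome biogenesis 3 were higher and 1 lower at 1 day, 2 and 3 at 3 days, and 12 and 2 at 7 days, when the list's median was 0.49. Ebna1bp2, which matures the large subunit, rose by 1.12 and 1.03 at 1 and 7 days and Nhp2 by 1.45, 1.09 and 0.67 at the 3 times. Mitochondrial ribosomal proteins were called higher in 29 of 82 probe sets at 1 day, 16 at 3 days and 20 at 7 days. Rack1 rose by 0.26 at 1 day and 0.31 at 7 days. Among other cells' markers, 2 of 6 macrophage and 3 of 6 blood probe sets were lower at 7 days, and 7 of 21 hepatocyte probe sets were lower at each time. Under median scaling the hepatocyte counts were 8, 18 and 12 at 1, 3 and 7 days, with median changes of -0.38, -0.60 and -0.42. Their part was not tested.

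**Figure D4:**
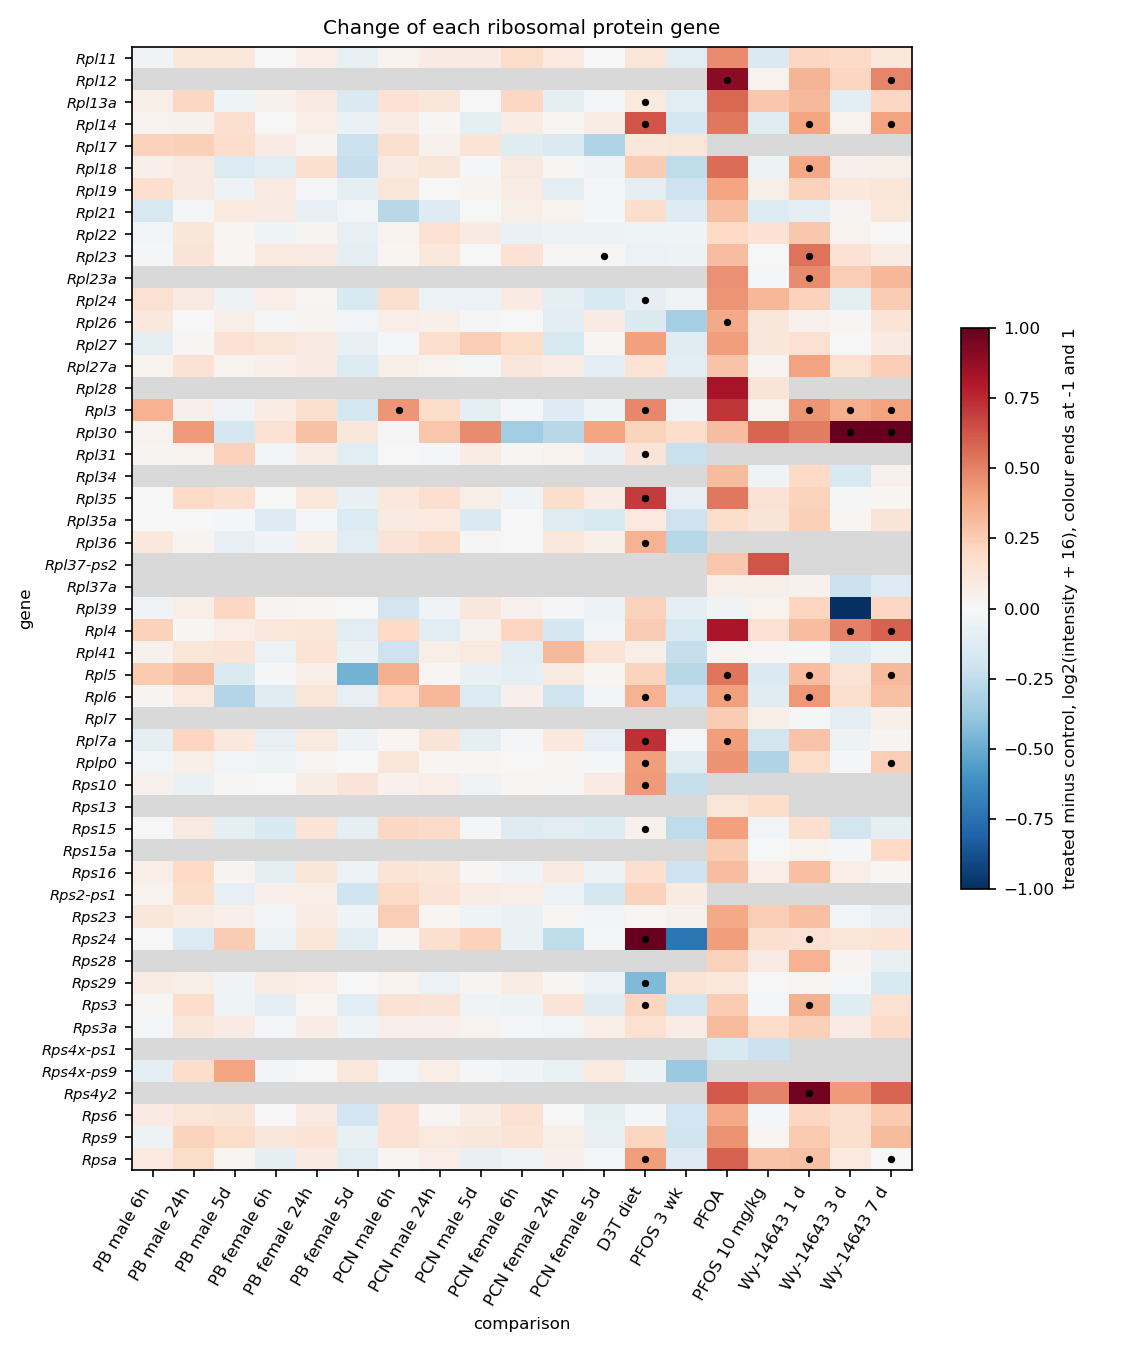
Change of each ribosomal protein gene (rows, the probe set with the highest mean level) in the 19 comparisons (columns), in colour from blue at -1 to red at 1 on the log2(intensity + 16) scale. Grey marks genes not on that array, and dots mark comparisons in which any probe set of the gene was called. Rpl3 has dots in 5 columns, and Rpl14, Rpl5, Rpl6 and Rpsa in 3.

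Across the 19 comparisons Rpl3 was called higher in 5, Rpl14, Rpl5, Rpl6 and Rpsa in 3 each, and 25 genes were called at least once. The 3 Wy-14643 comparisons share no vehicle rats, whereas PFOA and PFOS, and PB and PCN, were set against the same vehicle rats. The genes whose change varied most between comparisons were Rps24 (SD 0.581), Rpl30 (0.552), Rpl28 (0.492, 2 comparisons), Rpl12 (0.329, 5 comparisons) and Rpl39 (0.268). The least variable were Rps13 (SD 0.041) and the pseudogene-named Rps4x-ps1 (0.044), each from 2 comparisons, and then Rps3a (0.096), Rpl22 (0.099) and Rpl31 (0.107). Rps3a is a small-subunit protein near the exit of the message channel, and its change stayed between -0.04 and 0.31. Of the key members on all arrays, Rpl11 and Rps6 were never called against a control.

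No gene had one probe set called higher and another called lower in the same comparison. Wide spreads between probe sets of a gene often involved a dim one: the 3 of Rps15 spread from -0.91 to 0.19 in D3T rats, with the lowest from the one at a level of 6.17, and the 4 of Rpl21 from -0.21 to 0.69, with the highest from one at 7.58.

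**Figure D5:**
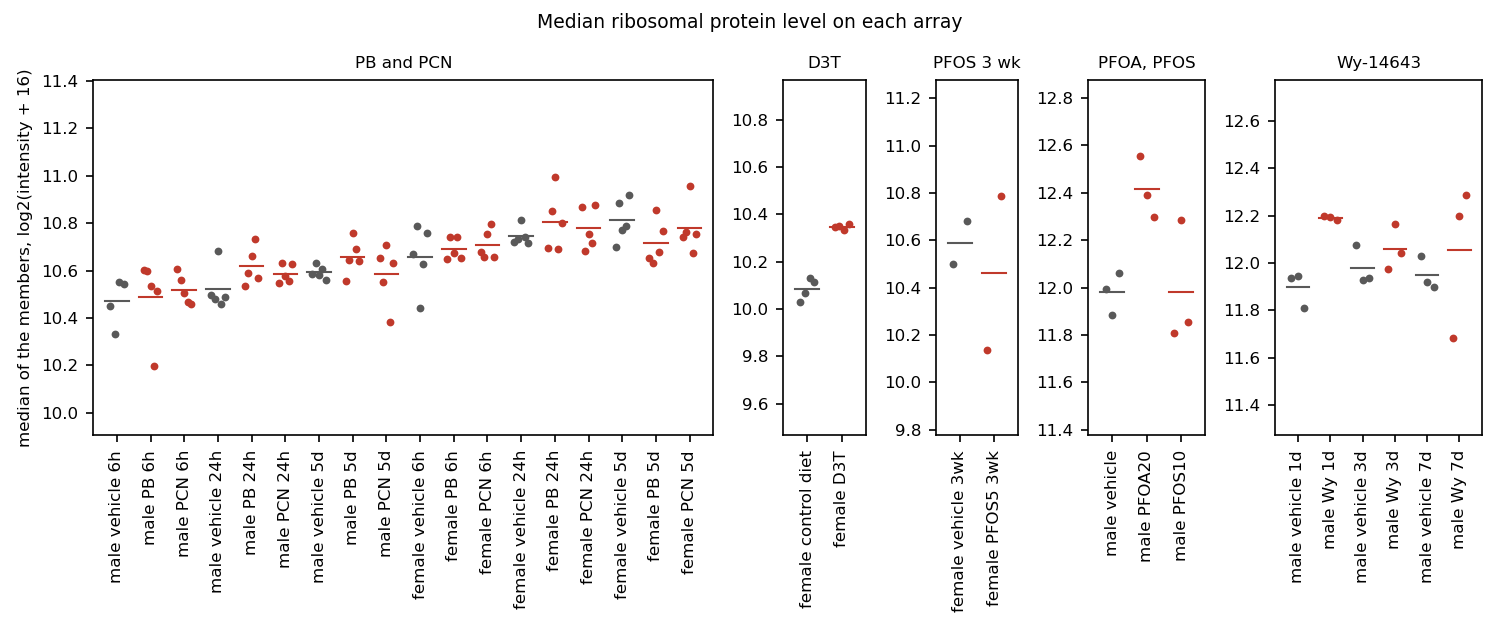
Median of the ribosomal protein probe sets on each array (points, y axis log2(intensity + 16), a separate scale for each study), grey for control and red for treated groups (x axis), with bars at group means. D3T rats sit at 10.3 to 10.4 above controls at 10.0 to 10.1, PFOA rats at 12.3 to 12.6 above vehicle rats at 11.9 to 12.1, and 1 Wy-14643 rat at 7 days sits at 11.7.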

How the data were processed

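Liver RNA of 129 rats was hybridised to 3 one-colour array types. The deposited values are linear intensity per probe set, with negative values; how the authors computed and scaled them is not given in the sources used here. Values at or under 0 were set to 0 and log2(intensity + 16) was taken, after quantile normalisation where array medians spanned more than 0.5 (all studies except the 3-week PFOS study). Each study was fitted with limma 3.58.1 (R 4.3.3), group means, on 8740, 31042 or 15866 probe sets; code was tested on simulated data. Symbols came from GEO's platform annotation, start sites from RefSeq (GRCr8). Members and lists were chosen with earlier results of these data known. Named were the key members, up to 4 largest changes each way per comparison, the 5 most and least variable genes, and up to 4 called members per list; other members were named after their values were seen. The number of arrays limits precision. The labels mark samples as separate rats. Alternatives were another pseudocount, median scaling, a low-level filter, trend moderation, fewer groups, a replicate block, narrower definitions of the members, array 1003 kept and single arrays left out; the vehicle sexes were compared after the data had been seen.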

Additional observations from a re-analysis of the deposited data

Results flagged for a closer look

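In 3 of 20 groups of 4 or 5 arrays, the members' median of 1 array lay far from the rest: male vehicle rat 1009 at 24 h at 10.68 (others 10.46 to 10.50), female vehicle rat 1508 at 24 h at 10.81 (others 10.72 to 10.74), and male PB rat 4005 at 6 h at 10.20 (others 10.51 to 10.60). Chance flags about 1 in 20 groups.

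Single members also held a far array. Rpl23 in females after 5 days of PCN was 9.703 in rat 5513 and 10.71 to 10.83 in the others. Its call was lost without that rat, but also without single vehicle rats and under median scaling. Rpl35 (M34331_g_at) in the control diet group was 10.65 in rat 1 and 10.29 to 10.35 in the others. Rps29 in the D3T group was 11.74 in rat 2 and 12.07 to 12.13 in the others. In all, 58 such checks were made.

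The Wy-14643 effect on Rps24, in its dim probe set, differed between 7 days and 1 day by 1.786 (SE 0.317, limma, adjusted p = 0.012). It was the only one of 46 members called, a share near the 1.87% of all probe sets called by this test. No member was called without the probe sets of lowest mean level, or with only the compared groups in the fit.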

How the results depend on the processing

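Called members were counted under each alternative. Under median scaling the counts were 0 for PCN in males at 6 h, 0 for PCN in females at 5 days, 4, 6 and 2 for vehicle females against males at 6 h, 24 h and 5 days, 0 for PFOA, 0 for PFOA minus PFOS and 4 for Wy-14643 at 7 days. With array 1003 kept they were 3 (PB males, 6 h), 10 (PCN males, 6 h), 0 (PCN females, 5 days) and 20, 5 and 3 (vehicle sexes at 6 h, 24 h and 5 days). Calls among all 8740 probe sets were then 269, 934 and 542 in these PB and PCN comparisons. For the vehicle sexes they were 1498, 329 and 353. With only the compared groups in the fit the member counts were 0 (PCN males, 6 h), 0 (PCN females, 5 days), 6 and 3 (vehicle sexes, 6 h and 5 days), 2 (PFOA), 0 (PFOA minus PFOS), 17 (Wy-14643, 1 day), 2 (Wy-14643, 7 days) and 0 (7 minus 1 day). Without the probe sets of lowest mean level they were 1 (PFOA), 0 (PFOA minus PFOS) and 0 (Wy-14643, 7 minus 1 day). The replicate block, by D3T rat number, called 9 instead of 17; the numbers do not pair the samples (correlations of same-numbered deviations 0.266, -0.078, -0.095 and -0.205). Median scaling moved the split of all called probe sets by over 10 points: the share higher went from 41.6% to 56.2% (D3T), 61.5% to 78.1% (PFOS), 53.2% to 30.1% (PFOA minus PFOS), 84.4% to 96.1% (PB males, 6 h), 57.2% to 71.6% and 58.8% to 72.1% (PB females, 24 h and 5 days), 69.5% to 82.6% and 82% to 95.2% (PCN males, 6 h and 24 h). Rps29 in D3T rats turned to 0.426 under median scaling. In these cases the cause was not tested.

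With single arrays left out, the counts ran from 12 to 18 (D3T), 0 to 3 (PFOA), 0 to 4 (PFOA minus PFOS), 6 to 8, 2 to 3 and 5 to 24 (Wy-14643 at 1, 3 and 7 days), 1 to 1 (7 minus 1 day), 6 to 11, 6 to 14 and 4 to 8 (vehicle sexes), 0 to 2 (PCN males, 6 h) and 0 to 1 (PB males at 6 h and 5 days, PCN females at 24 h and 5 days); for the other counts they stayed at 0. Of 1077 alternative values of the 76 called changes, 798 kept direction and call, 278 kept direction only and 1 turned. Pseudocounts of 1 and 64 and trend moderation kept every count within 1.5 times. Dim probe sets limit Rps24, Rpl30 and Rps15.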

Other observations

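Probe sets annotated with several symbols, one of them a ribosomal protein, were outside the symbol rule and are reported as values. In D3T rats 19 of 40 such probe sets were called higher and none lower (limma, adjusted p under 0.05), with a median change of 0.29. Of all probe sets 5.22% were called higher there and 7.33% lower. After PFOA 3 of 35 were called higher, with a median of 0.37, and none of 35 after PFOS at 10 mg/kg, with a median of 0.07. The shares of all probe sets called higher were 3.23% and 0.283%. After Wy-14643, 7, 1 and 2 of 33 were called higher at 1, 3 and 7 days. At those times 5.94%, 5.56% and 6.57% of all probe sets were called higher, so the 3-day and 7-day counts did not exceed the background. In the 12 PB and PCN comparisons at most 2 of 40 were called. Of all probe sets, 0.469% to 4.45% were called higher in these comparisons and 0.103% to 3.98% lower.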
